A study of Rattus norvegicus with 8 samples.

Results

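The genes described here are 10 rat genes of the axonal cytoskeleton and of axon growth, chosen by name: *Nefl*, *Nefm*, *Nefh*, *Ina*, *Mapt*, *Map2*, *Tubb3*, *Stmn2*, *Gap43* and *Kif5a*. Every probe whose RefSeq accession paired with one of these symbols was taken, which gave 14 of the 45598 probes on the array. *Nefm*, *Ina*, *Mapt* and *Map2* had 2 probes each, and the brighter probe stood for its gene. All 14 probes were well above background on all 8 arrays, and none was saturated.

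Neurofilaments are the intermediate filaments of neurons. They are polymers of a light, a medium and a heavy chain together with α-internexin, and they set the calibre of large axons. Microtubules are the tracks of axonal transport, and they are built from tubulin, bundled by tau in axons and by MAP2 in dendrites, and travelled by kinesin motors. Nigral dopaminergic (DA) neurons have very long and highly branched axons, and growth-associated proteins such as GAP-43 and stathmin-2 take part in their extension and repair.

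Adult female Sprague Dawley rats had received an intranigral injection on 1 side, and RNA of the ipsilateral *substantia nigra* (SN) was measured 20 weeks later. The AAV-αSyn group received an AAV6 vector carrying wild-type human α-synuclein (αSyn) at 5.2e+10 vector genomes per µL. The AAV-Null group received a control AAV6 vector at 5.3e+09 vector genomes per µL, so that the transgene and the dose of vector cannot be told apart. The rats were 3 months old when they entered the study per the methods, which name neither the promoter of the transgene nor the content of the control vector. Each group had 4 arrays, where the methods describe 3 biological replicates per group. The SN was dissected from each brain, and nothing links a deposited array to a particular rat, so p-values measure the spread between these samples. The study asked how excess αSyn alters transcription in this tissue, and here the question is put to the axonal genes. Values are spot intensities on the log2 scale after quantile normalization between arrays, on which a difference of 1 is a 2-fold difference. Probes differ in how brightly they report their RNA, so the order of 2 probes' levels says nothing of the order of their RNAs.

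The arrays were of like quality. Between 74.8% and 77.5% of spots on an array were well above background, and the correlation of normalized log2 values between arrays was 0.983 to 0.993. All 8 arrays lay on 1 slide read in 1 scan. In whole tissue, fewer cells of a type and less RNA per cell cannot be told apart. Markers of DA neurons fixed as a list (tyrosine hydroxylase, the dopamine transporter and others) were above background on all 8 arrays, as the labelled tissue implies.

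None of the 10 genes passed the test of a difference between AAV-αSyn and AAV-Null. Adjusted p-values from limma's test lay between 0.965 and 0.993, and unadjusted p-values between 0.183 and 0.853. No gene had an unadjusted p under 0.05, where 5.51% of the 13648 named genes tested and 5.64% of all 33853 probes tested did (3.31% higher and 2.32% lower in AAV-αSyn). An adjusted p under 0.05 was found for 5 probes in all (0.0148%), and none of them belonged to these genes. The 2 groups of arrays overlapped for all 10 genes. Groups without overlap were seen for 4.2% of named genes and 3.83% of all probes. The log2 fold change, AAV-αSyn minus AAV-Null, ran from −0.18 for *Gap43* to 0.20 for *Nefm*. It was above 0 for *Nefm* and *Stmn2* and below 0 for the other 8 genes, with a median of −0.05, beside 0.01 over all probes and 0.02 over named genes. That median was 0.06 without AAV-Null replicate 3.

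**Figure D1:**
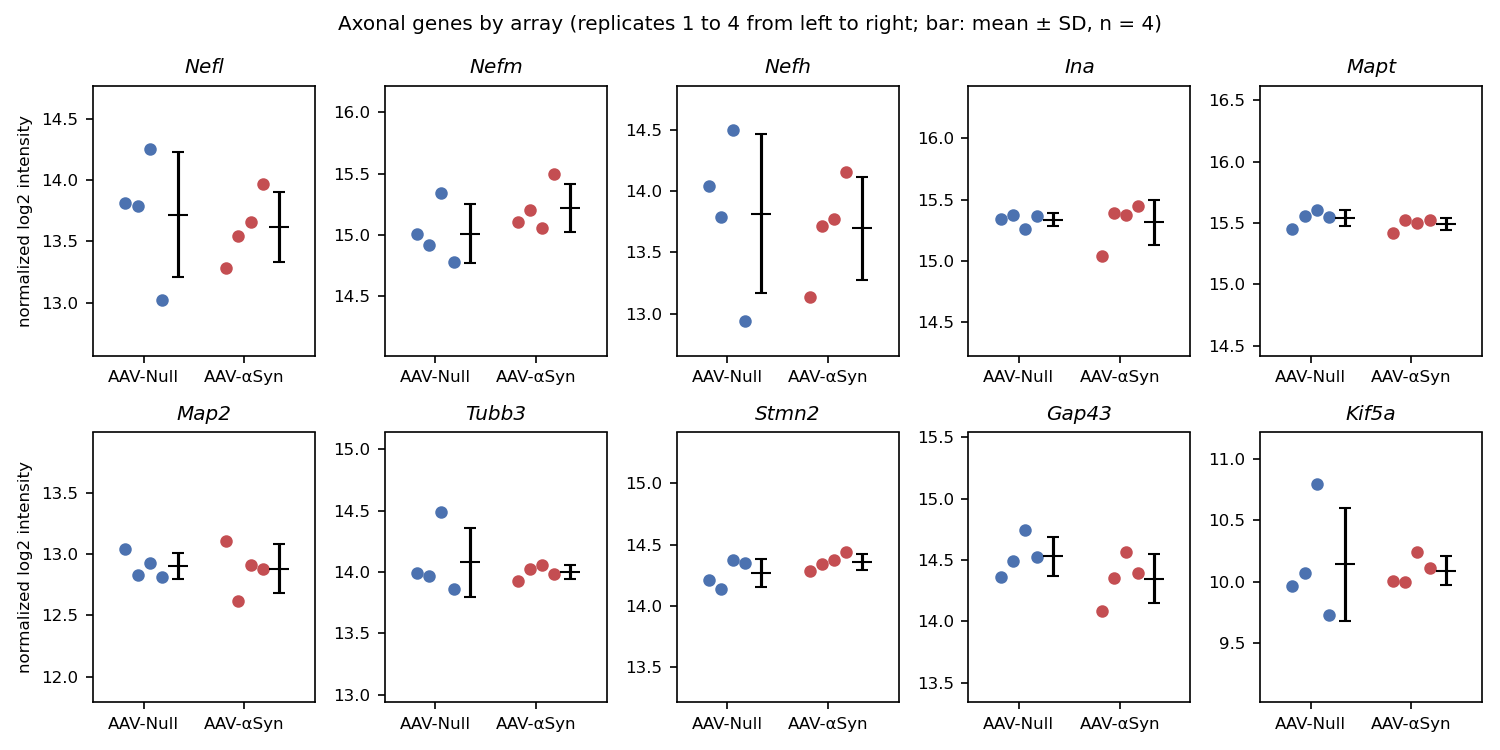
Normalized log2 intensity of each of the 10 axonal genes (y axis, a span of 2.2 log2 units in every panel) on the 4 AAV-Null (blue) and 4 AAV-αSyn (red) arrays, replicates 1 to 4 from left to right, with the group mean ± SD (n = 4) beside the points. The groups overlap in every panel, and the spread within a group is widest for *Nefh*, *Nefl* and *Kif5a*.

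The chains of the neurofilament triplet are described first. *Nefl* (probe A_44_P477889, NM_031783) encodes the light chain. On the AAV-Null arrays, replicates 1 to 4, its log2 intensity was 13.82, 13.79, 14.25 and 13.02, and on the AAV-αSyn arrays it was 13.28, 13.55, 13.66 and 13.97. All 4 AAV-αSyn arrays lay inside the range of the AAV-Null arrays. AAV-Null averaged 13.72 ± 0.51 (SD, n = 4) and AAV-αSyn 13.62 ± 0.28 (SD, n = 4), and the log2 difference, AAV-αSyn minus AAV-Null as throughout, was −0.10 (standard error 0.26, unadjusted p = 0.696 from limma's test). The 95% confidence interval of the fold ran from 0.617 to 1.40.

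*Nefh* (A_44_P402445, NM_012607) encodes the heavy chain, whose long phosphorylated tail projects from the filament. Its values were 14.04, 13.79, 14.49 and 12.94 on the AAV-Null arrays and 13.14, 13.71, 13.77 and 14.16 on the AAV-αSyn arrays. The highest and the lowest of all 8 values were both AAV-Null arrays, 2.93-fold apart on the linear scale. AAV-Null averaged 13.82 ± 0.65 (SD, n = 4) and AAV-αSyn 13.69 ± 0.42 (SD, n = 4), and the log2 difference was −0.12 (standard error 0.34, unadjusted p = 0.731 from limma's test). Its interval was the widest of the 10 genes, from 0.536-fold to 1.58-fold.

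*Nefm* (A_42_P752336, NM_017029) encodes the medium chain and lies close to *Nefl* in the rat genome, with 1 gene listed between them in the GRCr8 assembly. Its values were 15.01, 14.92, 15.34 and 14.78 on the AAV-Null arrays and 15.11, 15.20, 15.06 and 15.49 on the AAV-αSyn arrays. Only AAV-αSyn replicate 4 exceeded the highest AAV-Null array. AAV-Null averaged 15.01 ± 0.24 (SD, n = 4) and AAV-αSyn 15.22 ± 0.20 (SD, n = 4), and the log2 fold change of 0.20 (standard error 0.14) was the highest of the 10 genes but did not pass the test (unadjusted p = 0.195 from limma's test, exact permutation p = 0.257, two-sided). The other *Nefm* probe, A_44_P1081675, gave 0.17 (standard error 0.16, unadjusted p = 0.323 from limma's test), with AAV-Null replicate 4 again lowest and AAV-αSyn replicate 4 again highest of the 8 arrays. Without AAV-Null replicate 3 the *Nefm* difference was 0.31, with an unadjusted p of 0.0361 and an adjusted p of 0.587 from limma's test. In that subset *Nefm* was the only one of the 10 genes with an unadjusted p under 0.05. The difference of *Nefm* from the other triplet chains was also taken within each array, a comparison chosen after the values were seen, over 14 pairs of genes. It was larger in AAV-αSyn by 0.31 against *Nefl* (exact permutation p = 0.143, adjusted p = 0.25) and by 0.32 against *Nefh* (exact permutation p = 0.286, adjusted p = 0.333), and neither passed.

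*Ina* (A_44_P1164556, NM_019128) encodes α-internexin, which co-assembles with the triplet chains. Its AAV-Null values of 15.34, 15.38, 15.26 and 15.36 were close together. The AAV-αSyn values were 15.04, 15.39, 15.38 and 15.45, and AAV-αSyn replicate 1 stood below the other 7 arrays. AAV-Null averaged 15.34 ± 0.051 (SD, n = 4) and AAV-αSyn 15.32 ± 0.18 (SD, n = 4), and the log2 difference was −0.02 (standard error 0.10, unadjusted p = 0.838 from limma's test). The other *Ina* probe, A_44_P421375, had a difference of the opposite sign, 0.07 (unadjusted p = 0.483), so the sign for this gene is not settled. Its interval by the brighter probe was 0.839-fold to 1.16-fold.

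Of the microtubule genes, *Mapt*, which encodes tau, was the most tightly measured. Its brighter probe (A_64_P034774, NM_017212) read 15.45, 15.55, 15.60 and 15.55 on the AAV-Null arrays and 15.42, 15.52, 15.50 and 15.53 on the AAV-αSyn arrays. AAV-αSyn replicate 1 was the lowest of the 8 and AAV-Null replicate 3 the highest. The means were 15.54 ± 0.063 (SD, n = 4) and 15.49 ± 0.049 (SD, n = 4). The log2 fold change was −0.05 (standard error 0.068, unadjusted p = 0.506 from limma's test), and the interval of 0.869-fold to 1.08-fold was the narrowest of the 10 genes. The other *Mapt* probe, A_44_P1082034, gave 0.10 (unadjusted p = 0.311), again of the opposite sign.

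*Map2* (A_64_P013018, NM_013066), which encodes the dendritic microtubule-associated protein, read 13.04, 12.83, 12.93 and 12.81 on the AAV-Null arrays and 13.10, 12.62, 12.91 and 12.88 on the AAV-αSyn arrays. The highest and the lowest values were both AAV-αSyn arrays, replicates 1 and 2. AAV-Null averaged 12.90 ± 0.10 (SD, n = 4) and AAV-αSyn 12.88 ± 0.20 (SD, n = 4), and the log2 difference was −0.02 by either probe (unadjusted p = 0.853 and 0.873 from limma's test). *Tubb3* (A_42_P509314, NM_139254), which encodes the neuronal class III β-tubulin, read 13.99, 13.97, 14.49 and 13.86 on the AAV-Null arrays and 13.92, 14.02, 14.06 and 13.98 on the AAV-αSyn arrays. AAV-Null replicate 3 stood above all 7 other arrays, and those 7 lay close together. AAV-Null averaged 14.08 ± 0.28 (SD, n = 4) and AAV-αSyn 14.00 ± 0.057 (SD, n = 4), and the log2 difference was −0.08 (standard error 0.14, unadjusted p = 0.566 from limma's test). It was 0.06 without AAV-Null replicate 3.

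*Stmn2* (A_44_P496061, NM_053440) encodes stathmin-2, a neuronal regulator of microtubule dynamics that is needed for axon regrowth. It read 14.21, 14.14, 14.38 and 14.35 on the AAV-Null arrays and 14.28, 14.34, 14.38 and 14.44 on the AAV-αSyn arrays. AAV-Null averaged 14.27 ± 0.11 (SD, n = 4) and AAV-αSyn 14.36 ± 0.066 (SD, n = 4), and the log2 difference was 0.09 (standard error 0.081, unadjusted p = 0.293 from limma's test, interval 0.936-fold to 1.21-fold). Weighting each array by its quality gave 0.18 (unadjusted p = 0.0179, adjusted p = 0.283 from limma's test), a setting under which the count of probes with an unadjusted p under 0.05 was 4503 in place of 1908.

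*Gap43* (A_64_P148882, NM_017195) encodes GAP-43, a membrane protein of growth cones and regenerating axons. Its values were 14.36, 14.49, 14.75 and 14.52 on the AAV-Null arrays and 14.08, 14.36, 14.56 and 14.40 on the AAV-αSyn arrays. AAV-αSyn replicate 1 was the lowest array and AAV-Null replicate 3 the highest. The means were 14.53 ± 0.16 (SD, n = 4) and 14.35 ± 0.20 (SD, n = 4). The log2 fold change of −0.18 (standard error 0.12) was the lowest of the 10 genes and did not pass the test (unadjusted p = 0.183, adjusted p = 0.965 from limma's test, exact permutation p = 0.257, two-sided). The fold was 0.882, with an interval of 0.723 to 1.08.

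*Kif5a* (A_44_P224453, NM_212523) encodes a neuronal kinesin-1 heavy chain, a motor that carries neurofilaments and other cargo away from the cell body. It read 9.96, 10.07, 10.80 and 9.73 on the AAV-Null arrays and 10.01, 10.00, 10.24 and 10.11 on the AAV-αSyn arrays. All 4 AAV-αSyn arrays lay inside the AAV-Null range, which spanned 2.10-fold. AAV-Null averaged 10.14 ± 0.46 (SD, n = 4) and AAV-αSyn 10.09 ± 0.12 (SD, n = 4), and the log2 difference was −0.05 (standard error 0.21, unadjusted p = 0.821 from limma's test). Without AAV-Null replicate 3 it was 0.17.

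The confidence intervals give, for each gene, the range of differences around its estimate that is compatible with the measured values. All 10 lay inside a 2-fold difference in either direction, 8 (all but *Nefl* and *Nefh*) inside 1.5-fold, and 4 (*Ina*, *Mapt*, *Map2* and *Stmn2*) inside 1.3-fold.

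**Figure D2:**
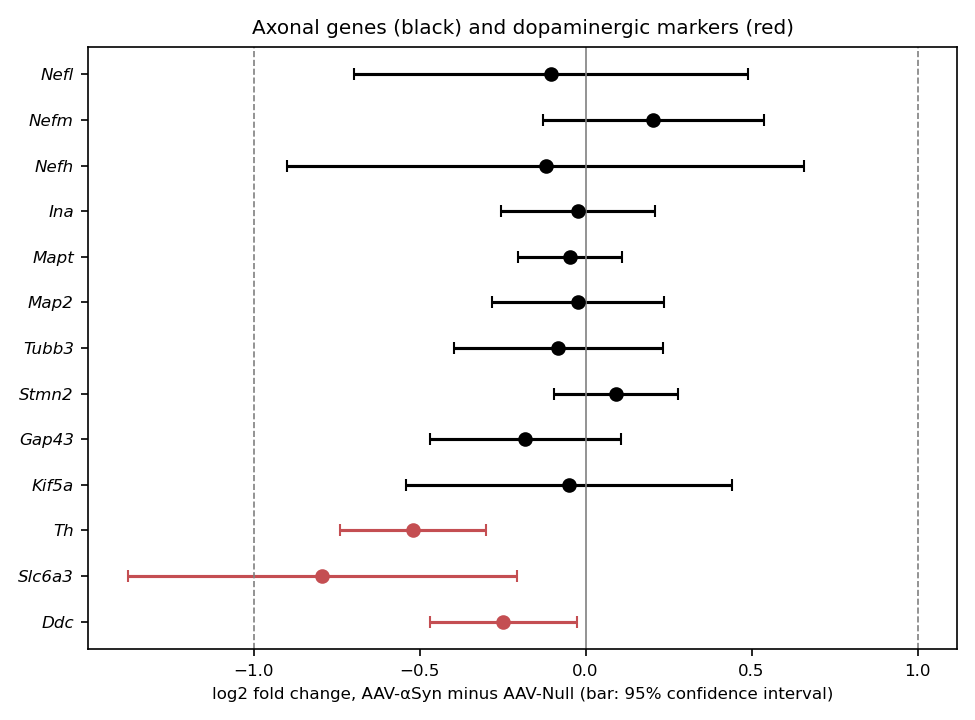
Log2 fold change, AAV-αSyn minus AAV-Null (x axis), with its 95% confidence interval for the 10 axonal genes (black) and 3 dopaminergic markers (red), 4 arrays per group, with dashed lines at a 2-fold difference. Every black interval crosses 0, from *Mapt* (narrowest) to *Nefh* (widest). The red ones, drawn for markers with an unadjusted p under 0.05, lie below 0. Of the tested DA markers not drawn, *Slc18a2*, *Nr4a2* and *Aldh1a1* have intervals that cross 0, and that of *Pitx3* lies below 0.

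The genes also differed in how much they varied between arrays of 1 group. Of all probes tested, 92.9% had a smaller within-group SD than *Nefh*, 87.3% a smaller one than *Nefl* and 80.6% a smaller one than *Kif5a*. Among probes of like brightness these shares were 99.6%, 98.9% and 94.3%. By its brighter probe, *Mapt* stood at the other end, with 2.98% of all probes and 17.8% of probes of like brightness varying less. For the other *Mapt* probe, printed in 1 spot, these shares were 26.0% and 67.3%. For the 4 genes whose brighter or sole probe was printed in 10 spots, the SD of the log2 intensity over the spots of an array was 0.032 to 0.051 for *Nefm*, 0.020 to 0.038 for *Gap43*, 0.022 to 0.044 for *Mapt* and 0.052 to 0.072 for *Stmn2*. They are SDs of single spots, whereas the values compared between arrays are means over the 10 spots. *Nefl*, *Nefh* and *Kif5a* had 1 spot each, so that for them the spread over spots is unknown.

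The arrays took similar places across the genes. Among the AAV-Null arrays, replicate 3 was the highest for 8 of the 10 genes and replicate 4 the lowest for 6. Replicate 3 was highest for 33.7% of all probes, and replicate 4 lowest for 26.1%. Among the AAV-αSyn arrays, replicate 4 was the highest for 6 genes (27.1% of all probes) and replicate 1 the lowest for 7 (32.4% of all probes). *Nefl* and *Nefh* held all 4 of these places, as 1.56% of all probes did. The mean of *Nefl*, *Nefm* and *Nefh*, each centred on its own mean, was 0.11, −0.01, 0.52 and −0.60 on the AAV-Null arrays in order of replicate number. On the AAV-αSyn arrays it was −0.34, −0.02, −0.02 and 0.36. Both groups therefore held arrays on either side of the mean, and the outermost in each direction was an AAV-Null array.

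**Figure D3:**
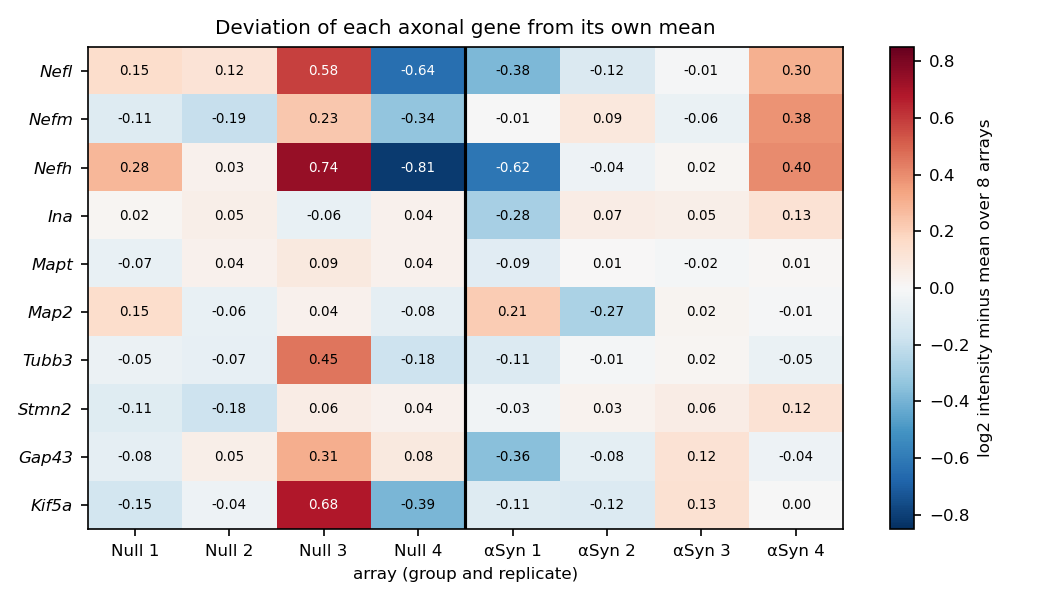
Log2 intensity of each axonal gene (rows) on each array (columns, AAV-Null left and AAV-αSyn right of the black line) minus the gene's mean over the 8 arrays, in red above and blue below the mean. *Nefl* and *Nefh* are high on AAV-Null replicate 3 and AAV-αSyn replicate 4 and low on AAV-Null replicate 4 and AAV-αSyn replicate 1, while *Mapt* lies between −0.095 and 0.086.

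Summed levels of cell markers followed this pattern in part, and their part in it was not tested. They are sums of linear intensity over a list, in which the brightest probes weigh most. The sum of 8 general neuronal markers was highest on AAV-Null replicate 3 (352091) and AAV-αSyn replicate 4 (344819), but lowest on replicate 1 of each group (294504 and 303363). Serotonergic sums were highest on the same arrays, at 3789 and 7344, and lowest on AAV-Null replicate 2 and AAV-αSyn replicate 3, at 1711 and 3512. Cholinergic sums were also highest there, at 2823 and 5672, and lowest on replicate 2 of each group, at 694 and 2724. GABAergic sums were lowest of all on AAV-Null replicate 4 (51729) but highest on AAV-αSyn replicate 1 (74294), where *Nefl* and *Nefh* were low. Oligodendrocyte sums took the places of *Nefl* among the AAV-Null arrays, highest on replicate 3 (318334) and lowest on replicate 4 (250005), and among the AAV-αSyn arrays were lowest on replicate 1 (285482) and highest on replicate 2 (318388). Sums of astrocyte (158232), microglial (17599) and endothelial and blood markers (10662) were each lowest of the 8 arrays on AAV-Null replicate 4, and thalamic sums (33311) were highest of the 8 on AAV-Null replicate 3. Within AAV-αSyn each of these sums was lowest on replicate 4 (162787, 18052, 12730 and 22800 in that order), where *Nefl* and *Nefh* were highest. Within AAV-Null, DA sums were highest on replicate 1 (195265) and lowest on replicate 3 (153384), where *Nefl* and *Nefh* were highest. Within AAV-αSyn, DA sums were lowest on replicate 1 (119512) and highest on replicate 4 (130119).

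The likeness of other genes to the neurofilament pattern was measured as the root mean square difference, over the 8 arrays, between a centred gene and the centred mean of *Nefl*, *Nefm* and *Nefh*. The closest of 13632 other named genes were *Wipf2* (0.113), *P2rx7* (0.125), *Stat6* (0.128), *Mapk10* (0.131) and *St13* (0.134), beside a median of 0.379 over all named genes. The SD of that mean over the 8 arrays was itself 0.354. Of the 7 genes outside the triplet, *Kif5a* was the most like it (0.210), with 1.02% of other named genes closer, followed by *Tubb3* (0.232), with 2.55% closer. *Gap43*, *Mapt*, *Ina*, *Stmn2* and *Map2* were between 0.302 and 0.354, with 18.4% to 38.6% of other named genes closer.

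The wider machinery around these genes was read from 8 lists holding 118 genes, of which 104 were tested. An unadjusted p under 0.05 was found for 9 (8.65%), all of them higher in AAV-αSyn, beside 3.46% of named genes higher and 2.05% lower. None passed the adjustment, the smallest adjusted p being 0.605, and the median log2 fold change of the 104 was 0.02. The lists nearest in function to the filament, tubulin and motor genes gave no call. These were 5 other intermediate filaments, 12 other tubulins, 22 transport motors and adaptors and 12 tau kinases and phosphatase subunits. The gene with the largest difference in each was *Prph* (peripherin, 0.21), *Tuba8* (0.16), *Dctn1* (−0.18) and *Gsk3a* (−0.35). The last pair rested on AAV-Null replicate 3, without which *Dctn1* was at 0.011 and *Gsk3a* at −0.013.

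The list nearest to *Gap43* and *Stmn2*, axon growth and regeneration, gave 4 of its 14 tested genes (28.6%), with a list median of 0.00 and 7 of the 14 below 0. The lowest was *Sox11*, a transcription factor of growing neurons that was picked out after its value was seen, at −0.36 (unadjusted p = 0.0501 from limma's test). *Sprr1a*, a gene induced in injured neurons, read 4.90, 4.43, 5.00 and 4.67 on the AAV-Null arrays and 5.71, 5.06, 5.43 and 5.54 on the AAV-αSyn arrays. Its probe was dim, with a mean of 5.09. Before normalization, the dimmest spots well above background lay at 3.23 to 3.62 on an array. The lowest AAV-αSyn array lay above the highest AAV-Null array, and the log2 difference was 0.69 (standard error 0.17, unadjusted p = 0.00366, adjusted p = 0.605 from limma's test). *Atf3*, an injury-induced transcription factor, was higher by 0.41 (unadjusted p = 0.0351), the neuropeptide gene *Gal* by 0.94 (unadjusted p = 0.0294) and *Marcksl1* by 0.17 (unadjusted p = 0.0487). For *Gal* and *Atf3* the groups overlapped. Of 22 alternatives, the unadjusted p stayed under 0.05 in 21 for *Sprr1a* (range of differences 0.24 to 1.02), 15 for *Atf3* (0.24 to 0.52), 14 for *Gal* (0.71 to 1.24) and 8 for *Marcksl1* (0.08 to 0.22). *Gal* is made by several groups of brain stem neurons, and on AAV-Null replicate 3 it was at 11.25, above AAV-αSyn replicate 3 at 10.64.

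Of 20 other microtubule-associated proteins, *Map7* (0.23, unadjusted p = 0.0270) and *Map1b* (0.17, unadjusted p = 0.0430) were higher without overlap of the groups. *Map1b*, which is prominent in growing axons, read 14.98, 14.99, 14.91 and 15.04 on the AAV-Null arrays and 15.08, 15.19, 15.09 and 15.22 on the AAV-αSyn arrays. The AAV-Null arrays thus ended just below the lowest AAV-αSyn array. Of 11 other stathmins and tubulin enzymes, the tubulin acetyltransferase gene *Atat1* (0.25, unadjusted p = 0.0108) and the severing enzyme gene *Katna1* (0.23, unadjusted p = 0.0234) were higher. Of 8 spectrin, ankyrin and axonal membrane genes, *Nfasc*, which encodes the node and initial segment protein neurofascin, was higher (0.24, unadjusted p = 0.0225). The unadjusted p stayed under 0.05 in 20 of 22 alternatives for *Atat1*, 17 for *Katna1* and *Map7*, 16 for *Nfasc* (lowest difference 0.08) and 11 for *Map1b* (lowest difference 0.07).

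**Figure D4:**
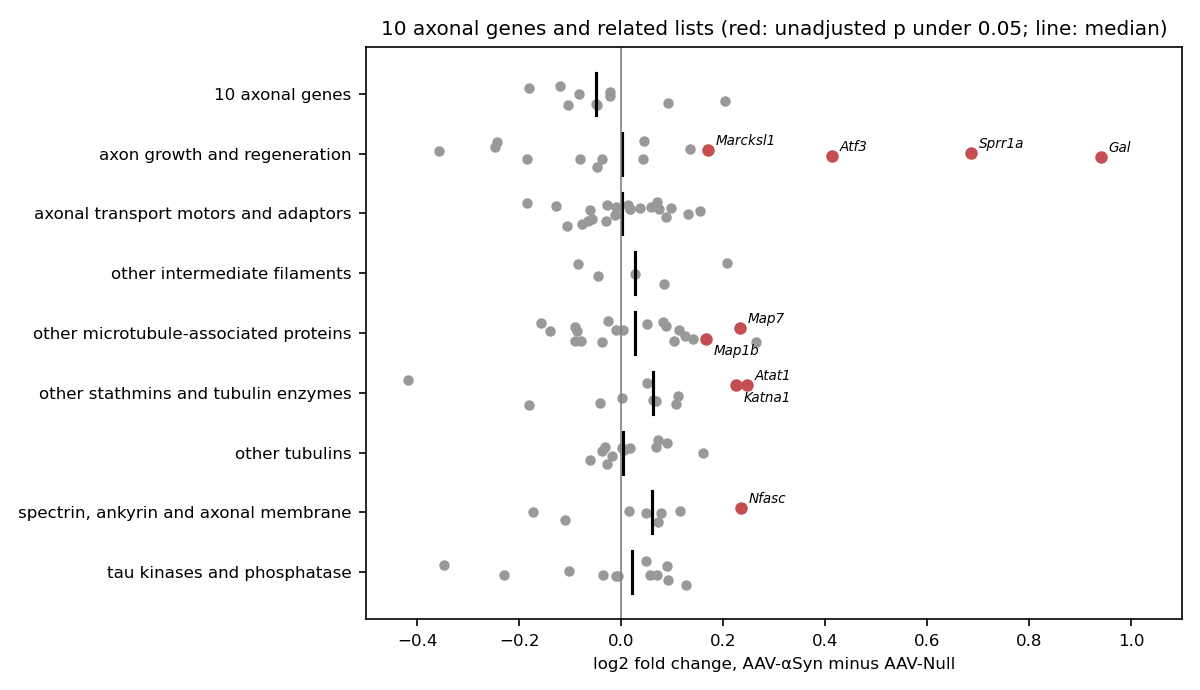
Log2 fold change, AAV-αSyn minus AAV-Null (x axis), of the 10 axonal genes and of the tested genes of each related list (rows), 1 point per gene by its brightest probe, with the median as a black line and genes with an unadjusted p under 0.05 in red and named. The 10 genes hold no red point, and all 9 red points lie above 0, with *Gal* at 0.94 and *Sprr1a* at 0.69 the farthest out.

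Levels of cell type markers also differed between the groups. Of 7 tested DA markers, *Th*, *Slc6a3*, *Pitx3* and *Ddc* were lower at an unadjusted p under 0.05. None passed the adjustment (smallest adjusted p 0.484 from limma's test), and the intervals of *Slc18a2*, *Nr4a2* and *Aldh1a1* crossed 0. The unadjusted p stayed under 0.05 in 22 of 22 alternatives for *Th*, 21 for *Slc6a3* and *Pitx3* and 15 for *Ddc*. The summed level of the DA list was 153384 to 195265 on the AAV-Null arrays and 119512 to 130119 on the AAV-αSyn arrays, without overlap. The summed levels of serotonergic markers (1711 to 3789 against 3512 to 7344), cholinergic markers (694 to 2823 against 2724 to 5672) and the 3 glycinergic and noradrenergic markers above background in both groups (439 to 808 against 799 to 1038) reached higher values in AAV-αSyn, and the groups overlapped for each of these lists. At an unadjusted p under 0.05, 3 of 6 serotonergic markers (*Tph2*, *Slc6a4* and *Maob*), 1 of 4 cholinergic markers (*Slc5a7*) and 1 of those 3 glycinergic and noradrenergic markers (*Slc6a5*) were higher and none was lower. The other tested markers of the last list, *Dbh* and *Hoxb3*, were above background on 3 and 2 AAV-αSyn arrays and on no AAV-Null array. They were tested only through the group where they are high, so they enter neither the sum nor the count and no fold is given. *Isl1* and *Slc6a2* lay lower in AAV-αSyn without passing and were above background on 4 and 3 of the 8 arrays, so that no size is given, and *Slc32a1* was at −0.07. *Slc6a5* also had an adjusted p under 0.05 (0.0424 from limma's test), which held in 8 of 22 alternatives (adjusted p between 0.0082 and 0.764) and was lost with the replicate block and within either slide column. *Maob* stayed under 0.05 in 11 of 22 alternatives. Of 5 thalamic markers, *Gbx2* and *Rgs16* were lower at an unadjusted p under 0.05 (in 12 and 17 of 22 alternatives), *Prox1* and *Cplx1* were at 0.06 and 0.02, and the summed levels overlapped (20542 to 33311 against 22800 to 24497). Of 8 neuronal markers only *Syt1* was lower at that threshold, and the median of the list was −0.03. No marker of GABAergic neurons, astrocytes, oligodendrocytes, microglia, or endothelium and blood had such a p. The part of these marker levels in the differences of the axonal and related genes was not tested.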

How the data were processed

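RNA of 8 samples was labelled with Cy3, and a SurePrint G3 rat array was used for each. The authors deposited for each spot the processed intensity, background-corrected within the array by Agilent Feature Extraction (12.0.3.2 per the file headers, 11.5.1.1 per the labels), with calls that mark spots well above background, outlying or saturated. A second deposited file holds normalized log2 values. Its columns share a median of 8.19 and 1 distribution and rank as the processed intensity does, and it was used as an alternative only.

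Samples were grouped by the labels. Processed intensities were taken to log2 after leaving out 4259 control features and outlier spots (268 to 418 per array). A probe was tested if at least 0.5 of its spots were well above background on at least 1 array, which left out 11745 dim probes and kept 33853. Arrays were quantile normalized, spots averaged, and groups compared with limma 3.58.1 (lmFit and eBayes without a trend) in R 4.3.3 with the data.table package (version 1.17.8). Tests were two-sided with Benjamini–Hochberg adjustment over all probes tested and a threshold of 0.05. For exact permutation tests the arrays were split into 4 and 4 in all 70 ways. The number of arrays limits the precision. The procedure was tested on simulated data.

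Accessions were named through a RefSeq list for assembly GRCr8, which paired 21229 probes with a symbol. The build named by the files differs, so no positions are given. The members and the lists were chosen with earlier results of these data known. All 10 members are named, other genes of a list by the largest absolute difference among those with an unadjusted p under 0.05 (up to 4), or else the largest difference. Alternatives were 75th percentile scaling, cyclic loess, normexp with an offset of 50, no filter or filters at 4 or all 8 arrays, the deposited matrix, an intensity trend, array weights, the mean over a gene's probes, a replicate block, the slide column as a block or taken singly, and leaving out each array. Lists had no set test. A marker gene of 1 list, and the values that rest on it, are not reported here.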

Additional observations from a re-analysis of the deposited data

Results flagged for a closer look

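None of the 28 groups of 4 arrays examined for the probes of the axonal genes held an array set apart from the others by a gap that was large against the group's range. Over all 90 groups examined, related genes and markers included, 2 did, where chance gives about 1 in 20 groups (4.5). The kinase gene *Gsk3a* was at 9.56 on AAV-Null replicate 3 and at 8.10 to 8.34 on the other AAV-Null arrays, a gap of 0.832 of the range. The astrocyte gene *Aldh1l1* was at 11.46 on AAV-Null replicate 4 and at 12.34 to 12.47 on the others, a gap of 0.874. These are the 2 arrays on which *Nefl* and *Nefh* took their highest and lowest values.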

How the results depend on the processing

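Under 22 alternatives, no axonal gene had an adjusted p under 0.05 (lowest 0.283), *Nefm* stayed higher (0.11 to 0.31), *Stmn2* higher (0.05 to 0.18) and *Gap43* lower (−0.25 to −0.08). Of 220 values of the 10 genes, 19 changed sign. Within slide column 1 (2 arrays per group) these were *Nefl* 0.067, *Nefh* 0.090, *Map2* 0.19, *Tubb3* 0.074 and *Kif5a* 0.22, with the markers and list genes *Aldh1l1* 0.11, *Gsk3a* 0.055 and *Hbb* 0.15. Within column 2 they were *Ina* 0.12, with *Itgam* −0.0033. The mean over probes gave *Ina* 0.026 and *Mapt* 0.028, and array weights *Tubb3* 0.023 and *Kif5a* 0.062, with the marker *Mag* −0.0070. Leaving out each array in turn, *Nefl* ran from −0.34 to 0.073, *Nefh* from −0.41 to 0.11, *Ina* from −0.067 to 0.069, *Map2* from −0.096 to 0.065, *Tubb3* from −0.15 to 0.056, *Kif5a* from −0.19 to 0.17 and *Dctn1* from −0.28 to 0.011. The highest value was without AAV-Null replicate 3 for *Nefl*, *Nefh*, *Tubb3* and *Kif5a*.

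The count of axonal genes with an unadjusted p under 0.05 was 2 with array weights (*Nefm* and *Stmn2*) and 0 to 1 leaving out an array. Probes past the adjustment numbered 10 with array weights, 3 with the slide column as a block, 0 within either column, and 3 to 5 leaving out an array (3 without AAV-Null replicate 2, 3 or 4). Array weights gave 4503 probes an unadjusted p under 0.05, and leaving out an array 1446 to 2803. With the replicate number as a block, 0 probes passed and no axonal gene was called. Whether the numbers (slide rows) pair the samples cannot be settled from 4 of them. Residual correlations were 0.144, 0.267, 0.0406 and −0.0022, and 2 of 4 arrays matched their own number best. The median over the 10 genes ran from −0.10 to 0.064 leaving out an array. The cause of these changes was not tested.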
